A study of Homo sapiens with 10 samples.

Results

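COV362 is an established human ovarian carcinoma cell line that is widely used as a model of high-grade serous cancer. It was described here from 1 nanopore PromethION library, 1 of 8 PromethION libraries and of 10 libraries in the series, against 6 other ovarian cancer lines sequenced on the same instrument. The other lines were OVMANA, OVKATE, OVTOKO, SK-OV-3 and COV504, with 1 library each, and IGROV-1, with 2 libraries. These 2 were averaged for levels and summed for the tests and for transcript shares. The labels give each group by its line name and instrument alone, with no treatment, time or genotype, and all libraries were long-read libraries of total RNA. The comparison asks which genes and transcripts set COV362 apart from the other 6 lines.

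The COV362 library held 2552499 counts and the other PromethION libraries 1729782 to 2341102. Counts were summed per gene and scaled by the library total to CPM, and 3 counts, taken as the detection floor, stood for 1.18 to 1.73 CPM in a single library. Mitochondrial ribosomal RNA took 3.08% of the counts in COV362, 1.58 to 3.31% in 5 other lines and 9.13 and 10.95% in the IGROV-1 libraries. Since COV362 has 1 library, its values have no replicate check, and the p-values below measure only the spread between the other lines. In such bulk libraries a lower share of expressing cells and less RNA per cell cannot be told apart. Ratios are the CPM in COV362 over the median of the other 6 lines, with values below the floor set to it.

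CDKN2A, one of the genes that mark this line in the series, encodes a pair of unrelated tumour suppressors from alternative first exons. p16INK4a inhibits CDK4 and CDK6 and so keeps the retinoblastoma protein, RB1, able to restrain entry into S phase, whereas p14ARF inhibits the ubiquitin ligase MDM2. High p16 together with loss of RB1 is a well known combination in human tumours, high-grade serous ovarian carcinoma among them. FAM107A, the other marker, encodes a small actin-associated protein of chromosome 3p.

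CDKN2A (chr9:21967753-21995301, GRCh38, minus strand) was at 434.5 CPM in COV362, 289.1 in OVMANA, 127.6 in OVKATE and 69.0 in IGROV-1, whose libraries gave 62.4 and 75.6. It was at 0.5 CPM in SK-OV-3 and had 0 counts in OVTOKO and COV504. COV362 was therefore the highest of the 7 lines, by 1.5-fold over OVMANA, and the lines split into 4 with and 3 without appreciable CDKN2A. Both products were present in COV362. Of its 1109 CDKN2A counts, 53.7% (95% Wilson interval 50.8 to 56.6, counting error only, as for all intervals and floors here) came from the p16INK4a transcript and 44.8% (41.9 to 47.8) from the p14ARF transcript. The p16INK4a transcript took 78.3% of 541 counts in OVMANA, 9.0% of 258 in OVKATE and 39.9% of 322 in IGROV-1, so that COV362 lay within the range of the other expressing lines. The neighbouring CDKN2B, which encodes p15INK4b, was at 4.3 CPM in COV362 and at 0.0 to 6.4 in the other lines. The joined identifier that holds MTAP, the gene on the other side of CDKN2A, was at 24.7 CPM in COV362, 1.3 in COV504 and 27.7 to 39.9 in the remaining lines.

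The junctions below show where the CDKN2A products diverge. The first exon of the p16INK4a transcript, ENST00000304494, spans chr9:21974678-21975098 and that of the p14ARF transcript, ENST00000579755, spans chr9:21994139-21994624, both on the minus strand of GRCh38. Lower case gives the last 24 bases of the first exon and capitals the first 24 bases of the exon 2 that both share and that begins at position 21971208.
CDKN2A p16INK4a transcript: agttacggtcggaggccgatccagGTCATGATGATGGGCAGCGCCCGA
CDKN2A p14ARF transcript: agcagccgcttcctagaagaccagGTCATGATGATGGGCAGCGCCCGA

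RB1 (chr13:48303726-48599436, plus strand), the main target of the kinases that p16INK4a inhibits, was at 2.7 CPM in COV362, from 7 counts. It was at 25.1 CPM in OVMANA, 36.6 in OVKATE, 43.4 in OVTOKO, 77.0 in SK-OV-3, 61.0 in COV504 and 34.1 in IGROV-1. The next lowest line was 9.16-fold above COV362, and RB1 is among the genes picked below for such a margin. The fitted log2 difference was -3.93 (SE 0.85). It did not pass edgeR's quasi-likelihood test across all genes (Benjamini-Hochberg adjusted p = 1), and it passed DESeq2's (adjusted p = 0.0073). COV362 thus held the highest CDKN2A level, counted over all transcripts of the gene, and the lowest RB1 level of the 7 lines. For the p16INK4a transcript alone COV362 was close to OVMANA, with 596 of 2552499 library counts against 424 of 1871485. The p14ARF transcript had 497 counts in COV362 and 111 in OVMANA, so that the CDKN2A margin over OVMANA lay mostly in that transcript.

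FAM107A (chr3:58564117-58627610, minus strand) was at 318.1 CPM in COV362, 69.2 in OVKATE and 38.3 in COV504, with 0 counts in OVMANA, OVTOKO, SK-OV-3 and IGROV-1. COV362 was 4.59-fold above the next line. Of its 812 counts, 89.9% (87.6 to 91.8) came from ENST00000360997, which held 88.8% in OVKATE and 94.4% in COV504. The rest came almost wholly from ENST00000394481, which carries an additional non-coding exon of 98 nt. The fitted log2 differences were 4.39 (SE 2.32) for FAM107A and 2.49 (SE 2.48) for CDKN2A, both with an adjusted p of 1 in edgeR. FAM107B, the paralogue of FAM107A, was lowest in COV362, at 7.4 CPM against 23.5 to 410.4.

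**Figure D1:**
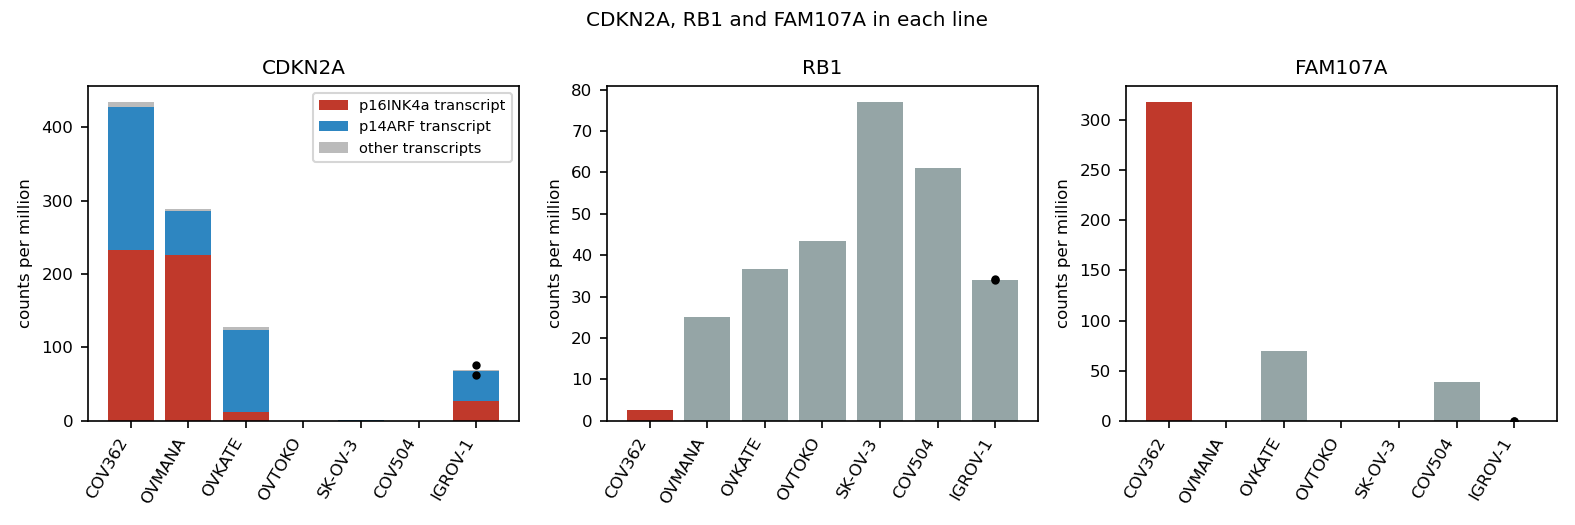
Bars give the level (CPM, linear axis from 0) of CDKN2A, RB1 and FAM107A in the 7 lines, the CDKN2A bars being divided by transcript, and black dots mark the 2 IGROV-1 libraries. COV362 has the highest CDKN2A bar (434.5), with both transcripts present, the highest FAM107A bar (318.1) and the lowest RB1 bar (2.7).

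Across all genes, edgeR called 0 of 12744 at an adjusted p under 0.05 (0%), and its lowest adjusted p was 0.19, for ACTC1. At an unadjusted p under 0.05 there were 368 genes, 186 higher (1.46%) and 182 lower (1.43%) in COV362. DESeq2, run on the same libraries, gave 8637 genes an adjusted p and called 3 higher (0.0347%) and 23 lower (0.266%). Of the 23, 14 had 0 counts in COV362 and 9 were above 0. Such a call can rest on 1 high line: NAPSA was at 1739.3 CPM in OVMANA and at most 1.5 elsewhere, and RAB25 at 307.1 in OVKATE and at most 8.9 elsewhere. By level alone COV362 was the highest line for 1309 of 12744 genes (10.3%) and the lowest for 1727 (13.6%). The median log2 ratio was -0.13 over all tested genes, and with TMM scaling it was -0.03, with COV362 highest for 13.3% and lowest for 11.2%.

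The 3 genes that DESeq2 called higher included a pair of subunits of eukaryotic translation initiation factor 3, the complex that helps to load messenger RNA on the small ribosomal subunit. EIF3H was at 1359.8 CPM in COV362 against 377.8 to 545.0 in the other lines (adjusted p = 0.0020 in DESeq2). EIF3M was at 579.0 CPM against 192.4 to 300.8 (adjusted p = 0.050 in DESeq2, under 0.05 before rounding). Neither range reached the COV362 level. The third was ACTC1, described below.

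The genes called lower by DESeq2 with counts in COV362 included RB1 and the following members. REEP5, which shapes the endoplasmic reticulum, was at 72.5 CPM against 184.8 to 301.2 (DESeq2 adjusted p = 0.0061). CDS2, which makes CDP-diacylglycerol for phosphoinositide synthesis, was at 11.8 CPM against 48.0 to 55.5 (adjusted p = 0.0081), the other lines being close to each other. APMAP and DDRGK1 lie on chromosome 20, as does CDS2. APMAP was at 40.0 CPM against 128.8 to 178.4 (DESeq2 adjusted p = 0.0086). DDRGK1, which takes part in protein UFMylation, was at 19.6 CPM against 63.2 to 97.2 (adjusted p = 0.013). Each of these groups of levels was separate from COV362.

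A margin rule singled out the genes furthest from all other lines. COV362 was at least 4-fold above the next highest line for 34 of the 7998 genes with at least 10 CPM in it (0.425%). The same rule gave 56 genes for IGROV-1 (0.707%), 76 for COV504 (0.917%), 78 for OVTOKO (1.01%), 103 for SK-OV-3 (1.21%), 111 for OVMANA (1.43%) and 257 for OVKATE (2.92%), so that COV362 had the fewest. Among the 34, 30 were protein-coding, 2 were joined identifiers and 2 were non-coding, and their levels in COV362 ran from 10.2 to 429 CPM with a median of 24.1. COV504 was the next highest line for 14 of them, OVKATE for 7 and OVMANA for 6. Just inside the rule lay AL451165.2 (4.12-fold) and FAM107A, and just outside it AFAP1-AS1 (3.91-fold) and BCAT1 (3.79-fold).

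Genes with roles in muscle and the extracellular matrix are described first. ACTC1 (chr15:34788095-34795726, minus strand), the cardiac muscle actin, had 176 counts and 69.0 CPM in COV362, 1 count in COV504 and 0 elsewhere, a pooled ratio of 1000 with a counting interval of 177 to 3.98e+04. Its adjusted p was 0.19 in edgeR and 0.0050 in DESeq2. COL1A2 (chr7:94394561-94431232, plus strand), a chain of type I collagen, was at 429.4 CPM in COV362, 57.2 in SK-OV-3, 31.6 in COV504 and 0.2 in IGROV-1, with 0 counts in the remaining 3 lines. COL1A1, which encodes the partner chain, did not follow this order: it was at 4.3 CPM in COV362, 219.3 in SK-OV-3 and 81.4 in COV504. PCOLCE, which enhances procollagen processing, was at 30.2 CPM against 0.9 to 4.4. ADAMTS5, an aggrecan-cleaving protease, was at 36.4 CPM against at most 4.0. COL9A1, a chain of type IX collagen, was at 14.9 CPM in COV362 and had 3 counts in all other lines together (ratio 72, counting interval 22.9 to 365).

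The levels of fibroblast markers are given beside COL1A2. The 9 markers found summed to 595.9 CPM in COV362 and to 0.6 to 1213.7 in the other lines. COL1A2 and THY1 (156.7 CPM) made up nearly all of the sum, whereas 4 of the 9, among them DCN, LUM and FAP at 0, were under the floor. Of 14 leukocyte markers 13 were under the floor, PTPRC and the T-cell receptor genes CD3D and CD3E at 0, and their sum was 4.7 CPM against 0.0 to 17.3. Of 10 endothelial markers 6 were under the floor, VWF at 0, and the sum was 53.3 CPM against 13.3 to 88.5.

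NDN (chr15:23685400-23687330, minus strand), a maternally imprinted growth suppressor, had 116 counts and 45.4 CPM in COV362 and 0 counts in all other lines, at least 26.2-fold higher against the floor per library. NR0B1, an orphan nuclear receptor of the adrenal and gonads, was at 24.3 CPM, from 62 counts, with 0 counts elsewhere. LMO2 (chr11:33858576-33892289, minus strand), a transcriptional adaptor known from blood formation, was at 117.1 CPM in COV362, 7.4 in OVKATE, 6.1 in SK-OV-3, 4.9 in COV504 and at most 0.2 elsewhere. NDN and NR0B1 were thus detected in COV362 alone, whereas LMO2 was present at a low level in 3 other lines.

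STRA6 (chr15:74179466-74212267, minus strand), the receptor that takes up retinol from its plasma carrier, was at 180.6 CPM in COV362, 11.6 in COV504, 7.9 in OVKATE and at most 1.7 in the other lines. NOX4, an oxidase that makes hydrogen peroxide, was at 38.8 CPM in COV362, 2.0 in SK-OV-3 and 1.8 in COV504. SHISA3, an inhibitor of Wnt and FGF receptor maturation, was at 176.3 CPM in COV362, 19.5 in IGROV-1, 4.9 in COV504 and 4.6 in SK-OV-3. LGR5, a receptor for R-spondins that marks stem cells in several epithelia, was at 67.8 CPM in COV362 and 10.7 in COV504, with 0 counts in the other 5 lines. PNOC, the precursor of the neuropeptide nociceptin, was at 195.5 CPM in COV362 and 26.2 in OVMANA alone. TNFRSF8, which encodes CD30, was at 13.7 CPM with 0 counts elsewhere, at least 7.91-fold higher. GYPC, a membrane sialoglycoprotein, was at 31.3 CPM against at most 3.0, and PGM5, a relative of phosphoglucomutase found at adherens junctions, was at 14.1 CPM with 2 counts in the other lines together (ratio 102, counting interval 26.4 to 877). The non-coding RNA MAGI2-AS3 was at 13.7 CPM, with 1.8 in COV504. PTP4A3, a phosphatase linked to metastasis, was at 56.8 CPM against 1.0 to 8.0.

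At the other end, COV362 was at least 4-fold below the next lowest line for 10 of the 5597 genes with at least 10 CPM in every other line (0.179%). The same rule gave 15 genes for COV504 (0.272%), 21 for SK-OV-3 (0.38%), 28 for OVKATE (0.504%), 32 for OVMANA (0.567%), 33 for OVTOKO (0.587%) and 94 for IGROV-1 (1.67%). FOXC1 (chr6:1609972-1613897, plus strand), a forkhead factor of mesenchymal development, had 1 count in COV362 (0.4 CPM) and was at 18.7 CPM in OVMANA, 54.9 in OVKATE, 95.4 in OVTOKO, 24.8 in SK-OV-3, 20.9 in COV504 and 36.6 in IGROV-1. ERAP2 (chr5:96875939-96919716, plus strand), which trims peptides for MHC class I, was at 2.0 CPM in COV362, 44.9 in OVMANA, 36.6 in OVKATE, 118.5 in OVTOKO, 71.4 in SK-OV-3, 146.8 in COV504 and 23.4 in IGROV-1 (edgeR adjusted p = 1, DESeq2 adjusted p = 0.015). That no other line reached down to COV362 for either gene follows from the margin rule that picked them. The others were RB1, the kinesin KIFC3 (1.2 CPM against 11.6 to 53.2), the prenyltransferase subunit PGGT1B (1.6 against 10.4 to 18.8), the mitochondrial carrier SLC25A30 (2.7 against 15.3 to 40.5), CBWD1 (3.5 against 18.2 to 55.5), the endoplasmic reticulum chaperone DNAJC3 (4.3 against 20.8 to 61.8), the growth factor PDGFA (4.7 against 21.8 to 82.8) and CDS2. CDS2 (4.09-fold) and PDGFA (4.63-fold) lay just inside the rule. HYOU1, a chaperone of the endoplasmic reticulum (3.1 CPM against 12.5 to 26.3), and SERINC5 (5.1 against 20.2 to 51.2) lay just outside it, at 3.97-fold each. Next came MICAL2, XRCC4 and HOMER1, with 2.7, 3.9 and 2.7 CPM in COV362 against at least 10.3, 14.7 and 10.1 in the other lines.

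**Figure D2:**
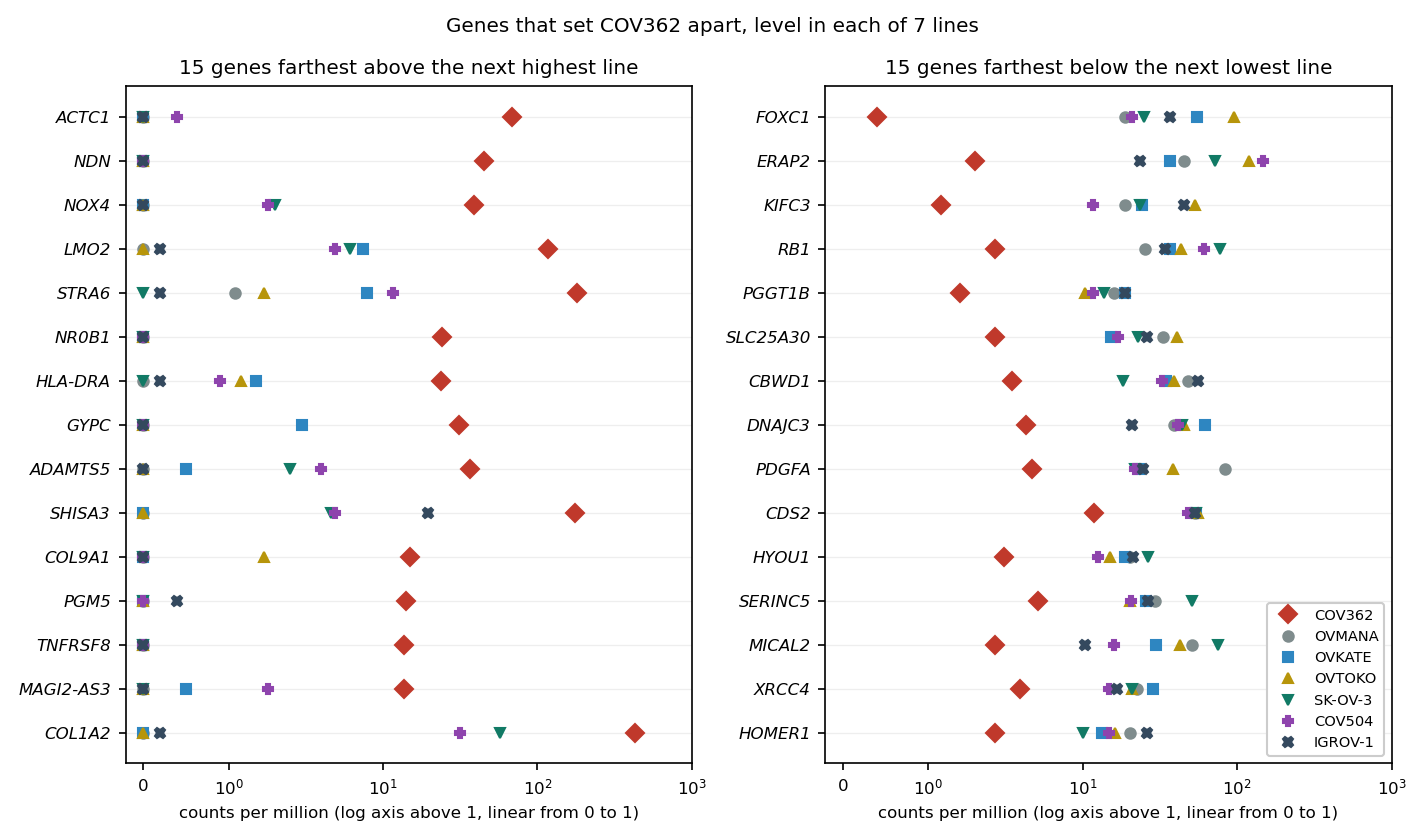
Each row is a gene, with the 15 furthest above and the 15 furthest below the other lines, and each point is the level in one line (CPM, on a logarithmic axis that turns linear near 0). Because the genes were picked by their distance from the other 6 lines, the COV362 point lies apart in every row. The rows run from ACTC1 (69.0 CPM in COV362 against at most 0.4) to HOMER1 (2.7 against at least 10.1).

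Genes of the interferon response were described next. Interferons bind receptors whose signal switches on antiviral genes through a promoter element built of repeated GAAA or, on the opposite strand, TTTC blocks. Of 40 interferon-stimulated genes tested, COV362 was the highest line for 13, beside 10.3% of all tested genes, and the lowest for 0. The median log2 ratio was 1.84, beside -0.13 over all genes. Of the 40, 27 were at least 2-fold above the median of the other lines and 0 were 2-fold or more below. Of all 12744 tested genes, 1598 were at least 2-fold above and 1842 were 2-fold or more below. None passed edgeR's test after adjustment, 2 of 40 had an unadjusted p under 0.05 on the higher side, and none was among the DESeq2 calls.

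IFIT1 (chr10:89392546-89406486, plus strand), which binds viral RNA ends, was at 319.3 CPM in COV362, 42.7 in OVMANA, 11.4 in OVKATE, 18.5 in OVTOKO, 15.2 in SK-OV-3, 215.3 in COV504 and 18.2 in IGROV-1. IFIT3 (chr10:89327894-89340971, plus strand), its partner, was at 342.4 CPM in COV362, 27.3 in OVMANA, 18.3 in OVKATE, 28.9 in OVTOKO, 18.7 in SK-OV-3, 98.3 in COV504 and 3.6 in IGROV-1. The identifier that joins IFIT2 with a non-coding gene was at 261.3 CPM in COV362 and at 3.6 to 37.8 in the other lines, a 6.91-fold margin. COV362 was highest for all of these, and COV504 was next for each. The antiviral genes OASL (63.5 CPM, next 17.8), HERC5 (63.1, next 30.4), DDX60 (50.9, next 36.0), IFIH1 (40.7, next 30.7), RSAD2 (37.6, next 22.7) and GBP1 (31.3, next 16.3) were also highest in COV362. BST2, which tethers budding virus, was at 588.4 CPM against 251.7 to 412.3.

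COV504 was above COV362 for many others. ISG15, a ubiquitin-like modifier, was at 774.1 CPM in COV362 and 978.4 in COV504, and MX1, an antiviral GTPase, was at 105.0 and 130.8. IFI44 was at 102.6 CPM in COV362 and 93.4 in COV504, against at most 30.2 elsewhere, and IFI44L at 78.0 and 109.9, against at most 3.5. Both lines therefore held these genes far above OVTOKO, SK-OV-3 and IGROV-1, where IFI44L was at 0.6, 3.0 and 0.0 CPM. With COV504 left out, COV362 was highest for 26 of the 40, beside 12.8% of all tested genes under the same omission. Regulators of the response did not all follow. IRF7 was at 16.5 CPM in COV362 against 1.5 to 46.3, and STAT2 at 0.4 against 0.4 to 2.9. The peptide transporter TAP1, another gene of the list, was at 32.5 CPM against 15.6 to 119.2.

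Promoter windows of 3 of these genes are shown because IFIT1, IFIT3 and DDX60 were highest in COV362 and carry the repeated element. Each line gives the 160 bases before the RefSeq start site (GRCh38.p14, 5′ to 3′ on the gene's strand), with matches to GAAANNGAAA or, for the other strand, TTTCNNTTTC in capitals.
IFIT1, chr10:89392463-89392622, plus strand: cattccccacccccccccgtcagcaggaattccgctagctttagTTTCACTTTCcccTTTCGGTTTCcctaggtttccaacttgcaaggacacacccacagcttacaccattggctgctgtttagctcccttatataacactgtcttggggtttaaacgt
IFIT3, chr10:89327837-89327996, plus strand: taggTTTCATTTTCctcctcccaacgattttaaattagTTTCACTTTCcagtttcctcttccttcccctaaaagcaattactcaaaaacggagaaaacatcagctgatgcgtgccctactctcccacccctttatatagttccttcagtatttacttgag
DDX60, chr4:168318753-168318912, minus strand: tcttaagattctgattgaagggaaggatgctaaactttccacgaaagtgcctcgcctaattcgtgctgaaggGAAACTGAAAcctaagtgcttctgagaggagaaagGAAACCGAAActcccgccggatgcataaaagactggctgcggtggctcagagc
Each window holds 2 matches, 1 for each capital run. Over the 250 bases before the start, a match on either strand, overlapping matches included, was found in 839 of 27305 genes with a window (3.07%), in 216 of 9290 tested genes (2.33%), in 20 of 33 interferon-stimulated genes (60.6%) and in 9 of the 12 with a window for which COV362 was highest. A match is a run of letters and not a measured binding site.

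The next 5 genes, which act in growth arrest and apoptosis, were chosen after their values were seen. Of the 5, 0 passed edgeR's test after adjustment, 1 (PHLDA3) had an unadjusted p under 0.05, and 0 were among the DESeq2 calls. CDKN1A, which encodes the p21 inhibitor of cyclin-dependent kinases, was at 13.7 CPM in COV362, 11.6 in COV504, 17.3 in OVKATE, 21.8 in SK-OV-3, 149.6 in OVMANA, 270.6 in OVTOKO and 352.9 in IGROV-1. MDM2, a ubiquitin ligase, was at 20.4 CPM in COV362, 24.8 to 31.2 in the same 3 lines and 58.4 to 161.9 in the other 3. BBC3, the death effector PUMA, had 2 counts in COV362 (0.8 CPM) and was at 2.7 to 36.4 CPM elsewhere. PHLDA3, an AKT inhibitor, was at 9.4 CPM against 34.6 to 87.8, and RRM2B, a ribonucleotide reductase subunit, at 8.2 against 16.5 to 111.8. COV362 was the lowest line for MDM2, BBC3, PHLDA3 and RRM2B but not for CDKN1A, and it was the lowest for 13.6% of all tested genes. As these genes were picked by their values, that order is no result about a wider group.

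Genes of the G1 checkpoint showed no common direction. Their counts stand beside 10.3% highest and 13.6% lowest over all tested genes. Of 24 tested, COV362 was highest for 4 and lowest for 2, the median log2 ratio being 0.53, and 0 passed edgeR's test after adjustment, with 1 at an unadjusted p under 0.05, on the lower side. RB1 was the member among the DESeq2 calls. CDK4, a kinase that p16INK4a inhibits, was highest in COV362, at 262.5 CPM against 133.2 to 247.8. CDK6 was at 57.6 CPM in COV362 and 87.6 in COV504, against 0.0 to 41.1 elsewhere. Cyclin E1, CCNE1, was at 25.5 CPM in COV362 against 79.6 in OVMANA and 5.6 to 15.2 in the other lines. CCND1, cyclin D1, was at 356.9 CPM, within a range of 117.4 to 1037.8. RBL2, a relative of RB1, was at 18.0 CPM against 18.0 to 44.0.

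Among 29 genes of S and M phase, COV362 was highest for 9 and lowest for 0, beside 10.3% and 13.6% of all tested genes. The median log2 ratio of the 29 was 0.43. None passed edgeR's test after adjustment, 2 had an unadjusted p under 0.05 on the higher side, and none was among the DESeq2 calls. MCM2, a subunit of the replicative helicase, was at 172.4 CPM in COV362, 122.3 in COV504 and 31.9 to 108.8 elsewhere. The mitotic kinesins KIF11 (56.8 CPM against 10.1 to 27.6) and KIF20A (111.3 against 30.5 to 75.2) and the proliferation marker MKI67 (86.6 against 36.1 to 62.3) were also highest in COV362. PCNA, the sliding clamp, was not: at 268.8 CPM, COV362 was above SK-OV-3 alone.

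**Figure D3:**
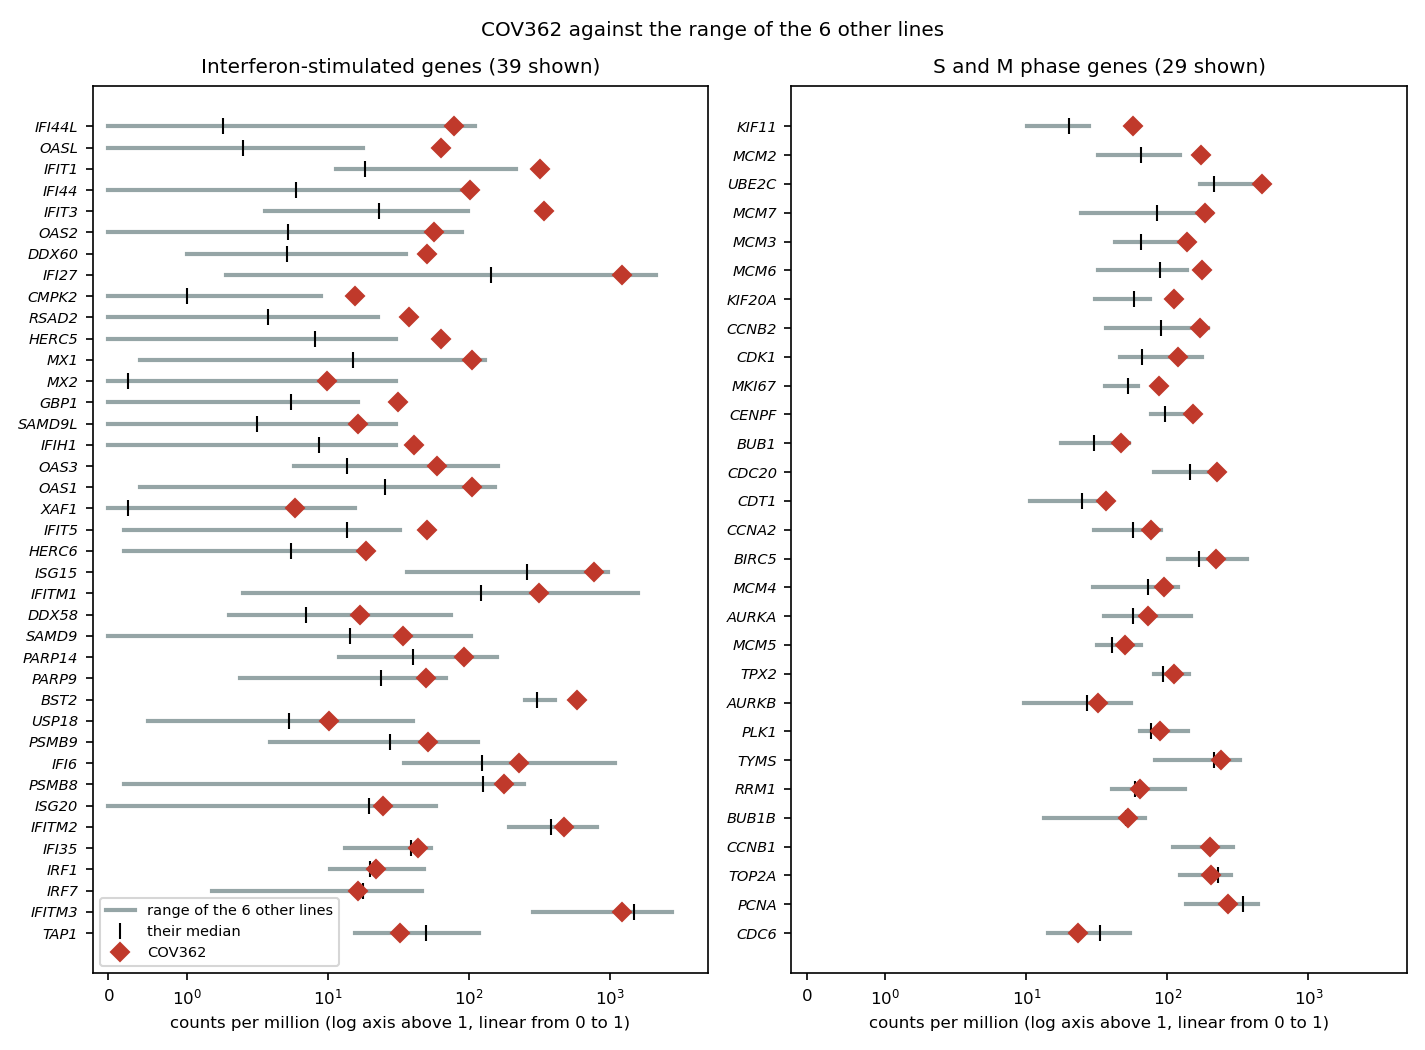
For 39 of the interferon-stimulated genes and 29 genes of S and M phase, a diamond gives the level in COV362 and a grey bar the range of the other 6 lines with a tick at their median (CPM, logarithmic axis above 1). Most diamonds lie right of the tick among the interferon-stimulated genes (median log2 ratio 1.84 over the list), and the S and M phase genes lie nearer to it (0.43).

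Lineage genes were mixed. PAX8, the factor that marks Müllerian epithelium, was at 136.7 CPM in COV362 against 84.1 to 339.8 in the other lines. SOX17 was at 98.3 against 10.4 to 146.4, so that COV362 lay within the range of the other lines for both. EMX2, a homeobox factor of the genital tract, was highest in COV362, at 134.8 CPM against 49.5 in OVKATE and at most 4.4 elsewhere, and so was the mucin MUC1, at 211.6 against 178.5 in OVMANA and at most 34.7 elsewhere. WFDC2, which encodes the serum marker HE4, was at 284.4 CPM in COV362, 1013.4 in OVKATE and 95.2 in COV504, with at most 4.6 elsewhere. WT1, often used to identify serous carcinoma, had 1 count in COV362 (0.4 CPM) and was at 76.2 CPM in OVKATE. Over 20 Müllerian and serous markers 2 were highest and 1 lowest, beside 10.3% and 13.6% of all tested genes. The median log2 ratio of these markers was 0.80. It was 0.42 without OVTOKO or without both IGROV-1 libraries and 1.14 without OVKATE, when 7 were highest. Over 9 clear cell markers the median was -1.02, with 0 highest and 0 lowest, and it was -0.34 without OVMANA and -1.73 without OVKATE.

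COV362 combined low cadherin 1 with keratins. CDH1, the epithelial cadherin, was at 1.6 CPM in COV362, 214.3 in OVMANA, 150.9 in OVKATE, 59.2 in COV504, 5.1 in SK-OV-3, 2.3 in OVTOKO and 0.0 in IGROV-1. KRT7, KRT8 and KRT18 were nevertheless at 419.6, 498.3 and 569.6 CPM in COV362, within the ranges of the other lines. CDH2, the neural cadherin, was at 105.0 CPM, with 174.0 in COV504 and 0.0 to 92.0 elsewhere, and VIM was at 2637.0 CPM against 351.2 to 5964.1. Of 24 epithelial genes 0 were highest or lowest in COV362, beside 10.3% and 13.6% of all tested genes. The median log2 ratio of the 24 was -0.52. For 24 mesenchymal genes it was 0.06, with 3 highest, COL1A2, TWIST1 (25.5 CPM, next 22.2) and S100A4 (4010.6, next 2631.1), and its sign changed when single lines were left out (-0.18 to 0.99).

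Of 14 MHC class I and II genes, which present antigens, COV362 was highest for 2 and lowest for 0, beside 10.3% and 13.6% of all tested genes. The median log2 ratio of the 14 was 0.16 and ran from -0.16 to 0.48 over its alternatives. HLA-DRA, the alpha chain of the HLA-DR class II receptor, was at 23.9 CPM in COV362 and at most 1.5 elsewhere, a 13.8-fold margin. HLA-DRB1, which encodes its partner, was at 11.8 CPM, below the 38.1 of OVKATE. CD74, the class II chaperone, was at 135.2 CPM in COV362, 112.1 in COV504, 54.9 in OVKATE and at most 2.0 elsewhere. CIITA, the class II transactivator, had 1 count (0.4 CPM) and was at most 2.2 CPM in the other lines. Some HLA genes are close to each other in sequence, so that counts may have been divided among those, which was not tested. In the mismatch repair pathway, MSH6 was highest in COV362, at 141.4 CPM against 14.8 to 90.3. BRCA2, of homologous recombination, was lowest, at 2.7 CPM against 3.7 to 16.8. Of 34 repair genes 4 were highest and 2 lowest, with a median log2 ratio of 0.52, and 0 passed or came under an unadjusted p of 0.05 in edgeR, nor was any among the DESeq2 calls.

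Transcript shares were compared within genes. edgeR's test of transcript usage called 1 of 3669 genes (0.0273%) after adjustment, with 26 at an unadjusted p under 0.05. The gene was TSPAN3, a tetraspanin, a family of membrane proteins with 4 membrane passes (edgeR adjusted p = 0.0084). Of its 495 counts in COV362, 44.7% (40.3 to 49.1) came from ENST00000424443. That share was 2.8% in OVMANA, 1.5% in OVKATE, 0.3% in OVTOKO, 0.5% in SK-OV-3, 0.4% in COV504 and 0.5% in IGROV-1. The main transcript of the other lines, ENST00000267970, held 54.8% in COV362 and 95.7 to 99.4% in them, so that no line overlapped with COV362. The call was lost without OVKATE (adjusted p = 0.065 in edgeR), without SK-OV-3 (0.17) and without both IGROV-1 libraries (0.10).

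The 2 TSPAN3 transcripts differ by exon 2 of ENST00000267970, a coding exon of 192 nt at chr15:77056064-77056255 (minus strand) that ENST00000424443 lacks. They also differ in the length of the first exon, of 218 nt in ENST00000424443 and 337 nt in ENST00000267970, and of the last, of 898 and 5524 nt. The junctions are shown for the skipped exon, with the last 24 bases of one exon in lower case and the first 24 of the next in capitals.
TSPAN3 ENST00000424443, exon 1 to 2: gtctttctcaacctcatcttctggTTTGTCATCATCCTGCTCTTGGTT
TSPAN3 ENST00000267970, exon 1 to 2: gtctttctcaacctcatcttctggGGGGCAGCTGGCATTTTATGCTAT
TSPAN3 ENST00000267970, exon 2 to 3: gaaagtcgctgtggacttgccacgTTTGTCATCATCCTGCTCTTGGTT

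By size alone, some transcript share in COV362 lay at least 20 percentage points outside all other lines with 50 counts or more for 31 of 3559 genes (0.871%). The other lines gave 19 to 36 such genes (0.528 to 1.03%), so that COV362 was within their range. The genes set apart by level could not be among the 31, since none had 50 counts both in COV362 and in at least 4 other lines, as the share rule required. CNOT1 (20.1 points) lay just inside and LGALS8 (19.7 points) just outside. The widest gap, 61.8 points, was in CDC42BPA, a kinase that acts downstream of CDC42 on myosin. Its ENST00000366769 held 18.6% (10.8 to 30.3) of 60 counts in COV362 and 80.5 to 94.0% in the 4 other lines with 50 counts. OVMANA, with 24 counts, was at 58.3%, and OVTOKO, with 31, at 86.6%. In COV362 ENST00000366767 held 66.4%, which lacks the coding exon 13 of 243 nt at chr1:227112671-227112913 (minus strand).

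The CDC42BPA junctions are given to show the skipped exon. The transcripts also differ in exon 1, of 178 nt in ENST00000366767 and 1470 nt in ENST00000366769, and ENST00000334218 held a further 14.9% in COV362.
CDC42BPA ENST00000366767, exon 12 to 13: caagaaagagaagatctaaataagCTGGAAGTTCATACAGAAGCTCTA
CDC42BPA ENST00000366769, exon 12 to 13: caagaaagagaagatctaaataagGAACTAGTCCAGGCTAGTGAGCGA
CDC42BPA ENST00000366769, exon 13 to 14: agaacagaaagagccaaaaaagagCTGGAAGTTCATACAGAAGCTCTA

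Further shares outside the other lines came from genes of varied function. In MICB, a stress ligand of natural killer cells, ENST00000399150 held 46.4% of 99 counts in COV362 and 4.4 to 7.1% in the lines with 50 counts, although OVKATE, with 14 counts, was at 62.3%. In CITED2, a transcriptional coregulator, ENST00000367651 held 56.8% of 244 counts against 84.9 to 94.3%. In MFAP5, a microfibril protein, ENST00000359478, which has a further coding exon of 30 nt, held 45.4% of 71 counts against 74.2 to 92.0%. Those of LSM12 (ENST00000293406, 83.4% against 45.1 to 49.7%), NDFIP2 (ENST00000620924, 65.5% against 7.8 to 28.4%) and C11orf49 (ENST00000395460, 78.3% against 16.4 to 39.9%) rested on 55 to 67 counts. For C11orf49 the IGROV-1 value of 39.9% comes from the summed counts of libraries at 17.8 and 53.5%. COV362 differed from a main transcript common to all other lines for 22 of 2129 genes, and a like count for each other line is not given. Some of these were near-ties, such as POLE3, whose leading transcript held 50.1% in COV362 against 17.4 to 49.6%. The gap was wider in NDUFS5, a subunit of respiratory complex I with 1036 counts, whose leading transcript held 56.2% in COV362 against 1.9 to 42.9%.

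**Figure D4:**
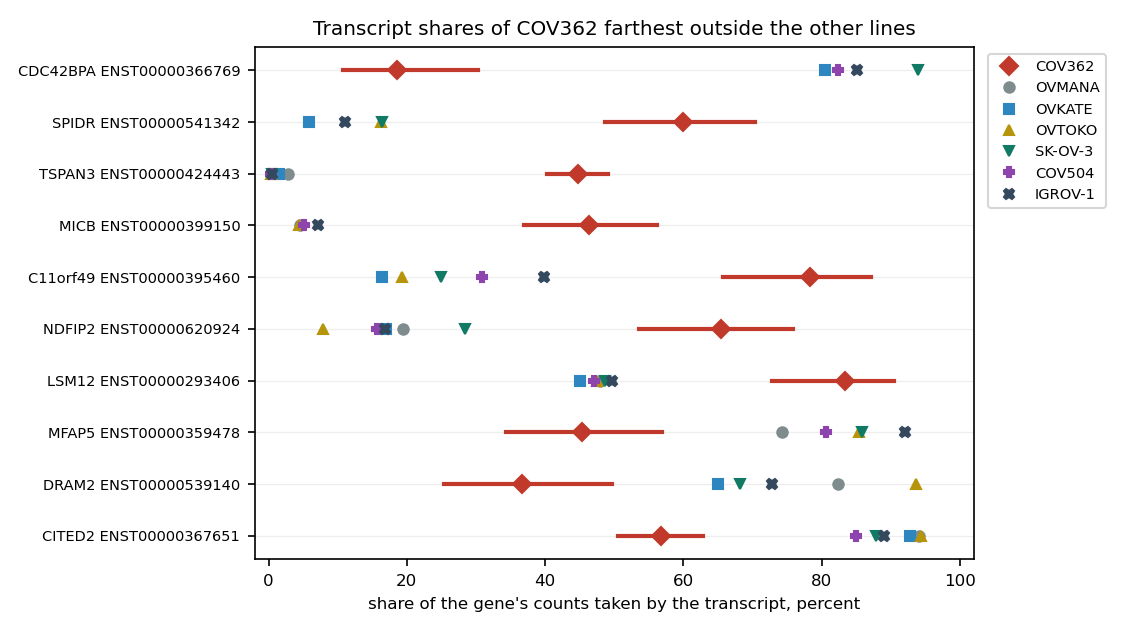
Each row is 1 transcript of the 10 genes with the widest gaps, and the horizontal axis is its share of the gene's counts (percent). The COV362 point, with its 95% Wilson interval, lies at least 28.1 percentage points from every other line with 50 counts or more, up to 61.8 points in CDC42BPA. IGROV-1 is shown from the summed counts of its libraries.

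Position along the genome was described for 9294 genes. COV362 was the lowest line for 16.2% and the highest for 10.1% of them (13.3 and 13.5% with TMM scaling). Chromosome 13, which carries RB1 and DNAJC3, had the greatest share of lowest genes, 66 of 164 (40.2%), with 1.83% highest and a median log2 ratio of -0.62. With TMM scaling 34.1% were lowest on chromosome 13 and the median was -0.53. Chromosome 22 had a lower median, -0.67, with 32.2% lowest and 1.32% highest (22.9% lowest and a median of -0.56 with TMM scaling). Chromosomes 17, 18, 20 and 21 had 26 to 26.7% lowest. In a run of 6 neighbours at chr13:46771256-48599436, among them ESD, SUCLA2, MED4, ITM2B and RB1, COV362 was the lowest line for each, with a median log2 ratio of -1.32. Longer runs of lowest genes, of 7 each, lay on chromosomes 12 and 20. They ran from PEBP1 to GCN1 (median -1.13), PXN to RNF10 (-1.14) and FASTKD5 to C20orf27 (-1.87). Chromosome 7 had 5.84% lowest.

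In windows of 25 consecutive genes, the lowest median log2 ratio, -1.45, was on chromosome 20 from RBCK1 to MAVS, the window that holds DDRGK1. The highest, 1.25, was on chromosome 8 from MYC to EEF1D, followed by 1.12 from EBAG9 to TMEM65, the stretch that holds EIF3H. The extremes of the other lines were -1.84 to -1.04 and 0.87 to 1.62, so that windows of this size were found in them too. The longest run of genes for which COV362 was highest had 8 members, at chr1:155139891-155262430, among them MUC1, the mitochondrial import gene MTX1 (131.6 CPM against 52.0 to 119.2) and SCAMP3 (161.0 against 41.0 to 139.5). A run of 6 at chr21:28872191-29630751 had a median log2 ratio of 2.06 and includes LTN1, a ribosome quality control ligase (53.3 CPM against 4.9 to 15.8), USP16 (136.3 against 20.8 to 63.3) and the chaperonin subunit CCT8 (887.0 against 136.0 to 373.5). The longest runs in the other lines had 4 to 15 highest and 5 to 13 lowest genes.

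**Figure D5:**
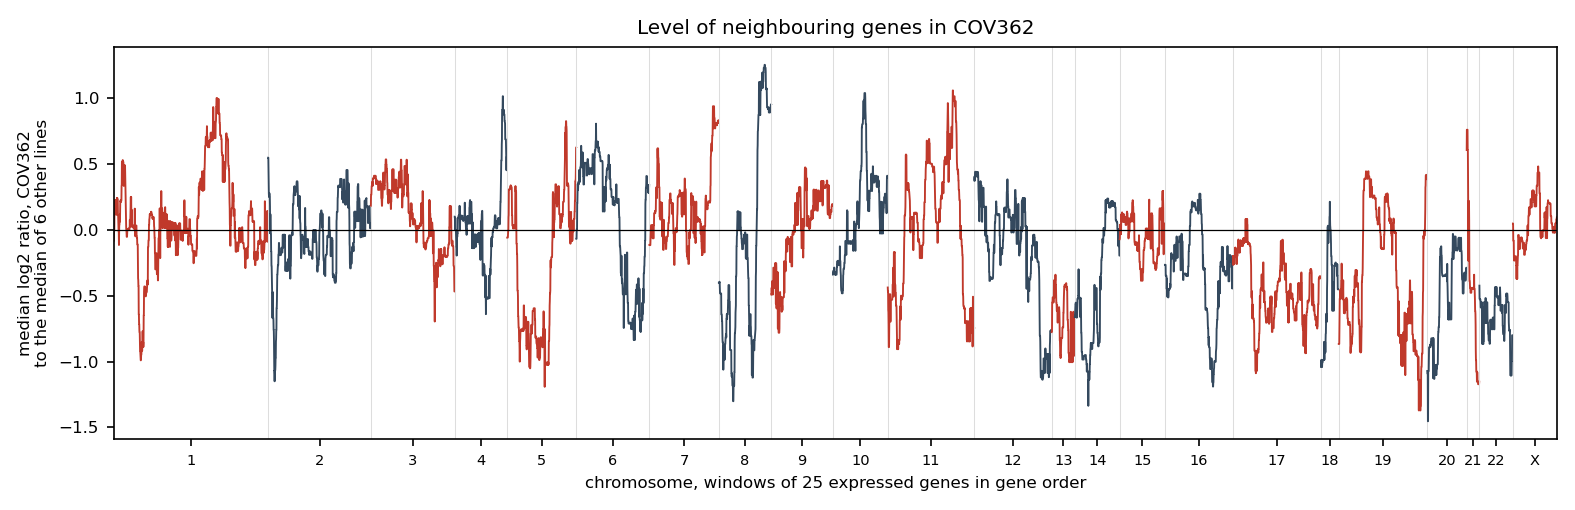
The median log2 ratio of COV362 to the other lines is plotted for windows of 25 expressed genes in gene order along each chromosome. The line reaches -1.45 on chromosome 20 and 1.25 on chromosome 8, and it lies below 0 in every window of chromosome 13.

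Over 13582 genes that averaged 1 CPM or more across the lines, COV362 was most like COV504. As a description of levels across genes, which are not independent replicates, Spearman's rho was 0.864 with COV504, 0.806 with SK-OV-3, 0.805 with OVKATE, 0.774 with IGROV-1 and 0.769 with OVMANA and OVTOKO. The order beyond COV504 rests on small differences.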

How the data were processed

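RNA was purified on columns and made into nanopore ligation libraries, per the labels' protocols. Reads were aligned with minimap2 2.24-r1122 to GRCh38, per the submitters' processing notes, their quantifier and annotation being not given in the sources used here. Estimated counts per transcript and TPM values were deposited by the authors, and the deposited TPM equalled CPM computed from the counts to within 5.6e-11, so that no value is scaled by length. Counts were summed per gene identifier. Identifiers that join several genes (722 of 57110, 4.57 to 5.96% of counts) were kept whole. Genes with at least 5 CPM in 1 line were tested with edgeR 4.0.16 (quasi-likelihood, TMM, estimated counts rounded, IGROV-1 libraries summed) and DESeq2 1.42.0 in R 4.3.3, COV362 against the other lines. The edgeR gene and transcript usage fits were also tried on simulated data, and DESeq2 was not. With 5 residual degrees of freedom, edgeR estimated a coefficient of variation of 84% between lines. Genes were named by margin (15 highest and 15 lowest), as markers, up to 4 per list by size of ratio, and for 10 transcript shares. Others named in the text were chosen after their values were seen, as were the junctions and promoters printed. Members and lists were chosen with earlier results of these data known. Gene and exon positions are from GENCODE 29, promoters from RefSeq on GRCh38.p14. The labels do not say whether the IGROV-1 replicates were separate cultures. Some results are not reported here. Alternatives covered scaling, filters, thinning to equal counts, margins, MinION libraries of IGROV-1 and leaving out each line.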

Additional observations from a re-analysis of the deposited data

Results flagged for a closer look

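Among the 18 named genes that spanned at least 10 CPM over the other lines, 3 had 1 of the 6 other lines far from the rest, its gap to the nearest line taking an unusually large share of the range, and chance alone gives this for about 1 in 20 groups. SHISA3 was at 19.5 CPM in IGROV-1, the next line being at 4.9 (gap over range 0.749). PDGFA was at 82.8 CPM in OVMANA, the next line being at 38.2 (0.732). SERINC5 was at 51.2 CPM in SK-OV-3, the next line being at 29.4 (0.704). Mitochondrial ribosomal RNA took 10.04% of the counts in IGROV-1, as the mean of its libraries, and at most 3.31% in the other 6 lines (0.796).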

How the results depend on the processing

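No paired analysis was possible because COV362 has 1 library, whose label carries no replicate number. edgeR called 0 genes in all fits but the one with the IGROV-1 libraries as separate samples, which called 1 (ACTC1, adjusted p = 0.042), and DESeq2 called 26. The transcript usage test called 0 to 1 genes when single lines were left out, and the adjusted p of TSPAN3 ran from 0.0005 to 0.17 over its alternatives. Genes highest by a margin numbered 34, with 129 at a 2-fold and 12 at an 8-fold margin, 10 with a minimum of 50 CPM, and 34 to 85 when single libraries were left out (70 without OVKATE, 85 without COV504). Genes lowest by a margin numbered 10, with 126 at a 2-fold and 4 at an 8-fold margin, 19 with a minimum of 5 CPM, 0 with 50 CPM, 17 after thinning to equal counts, and 11 to 19 when single libraries were left out (19 without SK-OV-3, 16 without OVKATE, 17 without OVTOKO, 18 without COV504 or without IGROV-1). TMM scaling kept all 34 of the highest among 44 genes and 8 of the 10 lowest. Transcript shares outside the other lines numbered 31, with 169 at 10 and 7 at 30 percentage points, 89 with 20 and 7 with 100 counts, and 28 to 33 when single libraries were left out. Alternatives for neighbouring genes, likeness and lists were chosen after seeing the data. The RBCK1 to MAVS window was at -1.28 with TMM scaling, -1.38 after thinning and -1.39 with MinION libraries of IGROV-1, and at -1.45 to -1.26 with single libraries left out. Under the same omissions, the longest run of highest genes had 8 to 13 members, that of lowest genes 7 to 11, and the correlation with COV504 was 0.859 to 0.864 (0.859 after thinning). Of 569 recomputed fold changes of 32 named genes, 0 changed sign and 6 passed the threshold. Among the lowest genes, RB1 rests on 7 counts and FOXC1 on 1.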

Other observations

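Other gene groups were described in the same way, with no test passed in edgeR after adjustment in any of them. Of 22 NRF2 targets, COV362 was lowest for 5 and highest for 2, beside 13.6% and 10.3% of all tested genes. HMOX1, the haem oxygenase, was at 2.0 CPM against 4.4 to 103.5 in the other lines, SRXN1, a sulfiredoxin, at 18.4 against 52.5 to 105.2, and GCLM, a subunit of the enzyme that starts glutathione synthesis, at 16.8 against 26.7 to 91.3. TXNRD1, a thioredoxin reductase, was highest in COV362, at 215.9 CPM against 111.9 to 197.7. The median log2 ratio of the list was -0.42, and it was 0.03 without OVTOKO or without SK-OV-3. Of 32 hypoxia and glycolysis genes 5 were lowest and 1 highest (median -0.51), with the prolyl hydroxylase subunit P4HA2 at 3.9 CPM against 14.4 to 51.7 and PFKFB3, a regulator of glycolysis, at 7.4 against 17.1 to 130.7. EGLN3, an oxygen sensor, was the highest, at 22.7 CPM against at most 16.8.

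Receptors and secreted factors were mixed, and their counts stand beside 10.3% highest and 13.6% lowest over all tested genes. Of 26 growth factor receptors and ligands, COV362 was highest for 2 and lowest for 3. Of 22 chemokines and cytokines it was highest for 2 and lowest for 1, and of 15 integrins highest for 1 and lowest for 1. ERBB2, the HER2 receptor, was lowest in COV362, at 5.9 CPM against 21.4 to 654.9, and FGFR3 had 1 count (0.4 CPM) against 5.3 to 50.2 CPM. VEGFC, a lymphatic growth factor, was highest, at 24.7 CPM against at most 9.8, as were the chemokine CCL5, at 22.3 against at most 7.1, and FGF18, at 188.8 against 8.7 to 167.3. Of the integrins, ITGB1, the shared beta 1 chain, was lowest in COV362, at 132.4 CPM against 231.8 to 1204.2, and ITGA9 was highest, at 11.4 against at most 0.9. Of 33 sterol and fatty acid synthesis genes, COV362 was highest for 4 and lowest for 3, beside 10.3% and 13.6% of all tested genes. The median log2 ratio of the 33 was -0.01. SCD, the stearoyl-CoA desaturase, was at 874.8 CPM against 82.6 to 522.2, MSMO1 at 219.0 against 42.8 to 149.4 and FDPS at 496.4 against 113.3 to 330.4, and PMVK at 144.2 against 33.5 to 142.4. Among the lowest were MVD, at 9.4 CPM against 16.1 to 32.5, and CYP51A1, at 67.0 against 70.7 to 174.6. S100A6, a calcium-binding protein, was highest, at 16682.1 CPM against 835.2 to 13161.0.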
